A study of Mus musculus with 72 samples.

Results

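The 9 genes Ctsa, Ctsb, Ctsd, Ctsl, Ctsz, Hexa, Psap, Lamp1 and Npc1 encode lysosomal proteins, and they were chosen by symbol from 51826 genes in the count files. The mRNAs of all 9 were higher in the membrane fraction than in the cytosol of mouse embryonic stem cells, by median folds between 7.36 (Npc1) and 29.6 (Ctsl) over 16 cultures. The share of new RNA of all 9 was lower in the membrane fraction than in the cytosol. Between nucleus and cytosol only Ctsa passed the test for a higher nuclear share, and not without replicate 3, whereas 78.5% of 11575 genes tested were called higher in the nucleus. Neither result is particular to lysosomal genes. Of 4 chaperone mRNAs of the endoplasmic reticulum, 4 were called lower by share in the membrane fraction than in the cytosol. By share 0 of these 4 were called higher in the nucleus than in the cytosol. The contrast between nucleus and cytosol varied between replicate pairs. Within replicates 3 and 4 the nuclear share was called higher in 4 of the 9 genes, against 9534 of 11840 genes. Within replicates 5 and 6 it was called higher in 0 of the 9, and in only 67 of 12953 genes.

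The study followed new RNA through E14TG2a cells, a feeder-independent line of mouse embryonic stem cells. By the study's methods the cells grew in medium with inhibitors and leukemia inhibitory factor, and cycloheximide was in the solutions for harvest and fractionation. The cells took up 4-thiouridine (4sU), a uridine analog that is built into RNA made during the labeling time. They were separated into nucleus, cytosol and a membrane fraction, with whole cells kept alongside. In SLAM-seq the incorporated 4sU is alkylated and then sequenced as C where the gene has T, and these T-to-C (T2C) mutations mark new RNA. Polyadenylated RNA was sequenced. Labeling lasted 15, 20 and 30 min in replicates 1 and 2. It lasted 20, 40 and 60 min in replicates 3 and 4, whereas replicates 5 and 6 had 60 and 120 min. The labels give 500 µM 4sU up to 40 min and 100 µM from 60 min, whereas the study's methods also list labeling for an hour at the higher dose and name no replicates. The 4 fractions of a replicate and time are called a culture here, which gave 16 cultures and 64 libraries. The 8 libraries of replicates 3 and 4 at 120 min were set aside, except in the whole-cell level tests over time and in an alternative. The study left out samples of the higher dose beyond 60 min, whereas the labels give these 8 libraries 100 µM. Which dose they had was not tested. Labeling time, dose and replicate pair go together in this design, so that they cannot be told apart between pairs. Within a pair times can be compared, but by the labels dose changes with time in replicates 3 and 4. According to the study's methods, cells of each replicate were passaged and labeled on their own. The cultures of 1 replicate at different times share that replicate, so that tests over 16 cultures, and fits over their libraries, treat as independent what comes from 6 replicates.

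Ctsa (ENSMUSG00000017760) lies on chromosome 2 of GRCm38 from 164832873 to 164841032 on the plus strand, and Ctsz (ENSMUSG00000016256) on the same chromosome from 174427493 to 174439039 on the minus strand. Ctsb (ENSMUSG00000021939) lies on chromosome 14 from 63122462 to 63145923, plus strand. Ctsd (ENSMUSG00000007891) lies on chromosome 7 from 142375911 to 142388038, minus strand. Ctsl (ENSMUSG00000021477) lies on chromosome 13 from 64359337 to 64370890, minus strand. Hexa (ENSMUSG00000025232) lies on chromosome 9 from 59539540 to 59565109, plus strand. Psap (ENSMUSG00000004207) lies on chromosome 10 from 60277627 to 60302597, plus strand. Lamp1 (ENSMUSG00000031447) lies on chromosome 8 from 13159161 to 13175338, plus strand, and Npc1 (ENSMUSG00000024413) on chromosome 18, minus strand.

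Lysosomes are acidic organelles that degrade proteins, lipids and sugar chains delivered by endocytosis and autophagy. Their soluble enzymes and most of their membrane proteins are made by ribosomes bound to the endoplasmic reticulum, to which a signal peptide at the start of the protein directs them. Soluble enzymes then receive a mannose 6-phosphate tag in the Golgi apparatus and are carried to the lysosome by receptors for that tag. An mRNA translated at the endoplasmic reticulum sediments with membranes when cells are fractionated.

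The libraries held 15382522 to 52975732 reads on genes, and the median was 19393192 for whole cells, 20888249 for the nucleus, 21050538 for membranes and 22915024 for the cytosol. Per gene and library the reads on exons of the 9 genes covered between 1354 T positions, counted once per read, (Npc1 in the cytosol) and 1854917 (Lamp1 in the membrane fraction). The estimated conversion rate of new RNA was 2.07 to 8.29% of T positions. The summed level of 8 markers of naive embryonic stem cells had a median between 9292 TPM in the nucleus and 13034 TPM in the cytosol, where TPM counts reads per annotated exon length, scaled to the same sum in each library. Of 4 macrophage markers Cd68, itself a lysosomal membrane protein, had a median of 107 TPM in the membrane fraction, but Adgre1 was at 0 in 61 of 64 libraries, Ptprc in 55 and Csf1r in 33. Summed markers did not exceed 5.74 TPM for primitive endoderm (6 genes) or 15.9 TPM for fibroblasts (4 genes) in any library. In bulk libraries fewer cells of a type and less RNA per cell cannot be told apart. The chaperones of the endoplasmic reticulum Hspa5, Hsp90b1, Calr and Canx summed to a median of 4442 TPM in the membrane fraction, 1678 TPM in the nucleus and 261 TPM in the cytosol.

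Whole-cell libraries of replicates 5 and 6 stood apart over all genes. In replicate 6, 98.9% of 11575 genes had a lower share of new RNA in whole cells at 120 min than at 60 min, the 9 lysosomal genes among them, and the median share was 37.4% at 60 min and 17.5% at 120 min. Whether these whole-cell libraries were exchanged was not tested. In the other 7 pairs of 60 and 120 min libraries of replicates 5 and 6 only 1.58 to 5.33% of genes were lower at 120 min. Of the 9 lysosomal genes, 4 were lower at 120 min in the cytosol of replicate 5 (5.33% of genes). In the cytosol of replicate 6 it was 2 (3.17% of genes), and in the remaining pairs 0. By level, the whole-cell library of replicate 5 at 60 min differed from the other 3 whole-cell libraries of replicates 5 and 6 by a median of 0.96 to 1.07 on the log2 scale over 8128 genes, while those 3 were as close as 0.07. The nuclear library of the same culture differed from the other 3 nuclear ones by 0.47 to 0.65. Half-lives and the order of whole-cell shares are therefore also given without either replicate, and the order of whole-cell levels without replicate 5.

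The first bases of the coding sequences are shown because they encode the signal peptides that send these proteins to the endoplasmic reticulum. Codons with T at the second position, which stand for hydrophobic amino acids, are in capitals. The sequences run over the first 25 codons of the principal GENCODE transcript on GRCm38, 5′ to 3′, and Rraga, a GTPase made in the cytosol that sits on the lysosome's surface, is shown for comparison.
Ctsd: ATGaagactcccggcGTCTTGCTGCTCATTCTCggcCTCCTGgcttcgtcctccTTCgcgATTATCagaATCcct
Ctsl: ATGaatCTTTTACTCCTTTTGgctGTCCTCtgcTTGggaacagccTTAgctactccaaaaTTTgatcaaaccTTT
Ctsz: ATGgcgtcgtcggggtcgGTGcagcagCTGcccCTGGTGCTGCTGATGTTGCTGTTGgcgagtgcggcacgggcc
Lamp1: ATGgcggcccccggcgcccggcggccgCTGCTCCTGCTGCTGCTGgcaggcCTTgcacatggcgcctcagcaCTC
Ctsa: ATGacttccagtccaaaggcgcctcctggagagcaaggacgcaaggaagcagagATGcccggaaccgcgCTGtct
Rraga: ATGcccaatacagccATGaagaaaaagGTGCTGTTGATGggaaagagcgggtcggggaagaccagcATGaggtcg

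In Ctsd 13 of the 25 codons had T at the second position, against 12 in Ctsl, 11 in Ctsz, 10 in Npc1, 9 each in Ctsb and Lamp1, 8 in Psap and 7 in Rraga. The runs of capitals in Ctsl, Ctsz and Lamp1 are hydrophobic stretches of the kind that signal peptides hold. Ctsa had 3 such codons, and a further ATG in frame lies near the end of its window. Over the 9 genes the median was 36% of codons, against 28% over 13482 coding genes. The median was also 36% for 40 other lysosomal hydrolases and their activators, 42% for 6 genes of sorting to the lysosome, 26% for 20 other lysosomal membrane proteins and 24% for 25 lysosomal genes made in the cytosol. This is a description of sequences and was not tested.

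The soluble proteases came first. Levels in TPM are per length of all annotated exons of a gene. For Npc1 that is 11317 bases, against 5224 in its principal transcript, so that comparisons between genes depend on the length used. Ctsd, an aspartic protease, lay between 4.34 and 34.3 TPM in the cytosol (median 21.95) and between 256 and 718 TPM in the membrane fraction (median 519, n = 16 each). Nuclear libraries lay in between, with 87.4 to 247 TPM (median 169), and whole cells had 166 to 485 (median 256). The lowest membrane library of Ctsd was above the highest nuclear one and the lowest nuclear library above the highest cytosolic one, so that the 3 fractions did not overlap. The level was higher in the membrane fraction than in the cytosol by 5.08 ± 0.267 on the log2 scale (edgeR, standard error, Benjamini-Hochberg adjusted p = 4.48e-27).

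Ctsl, a cysteine protease, had 1.82 to 10.6 TPM in the cytosol (median 6.67) and 111 to 317 TPM in the membrane fraction (median 168). The groups were separated by a wide gap, and the log2 difference of 5.40 ± 0.280 was the highest of the 9 genes (edgeR, adjusted p = 2.22e-27). Ctsb, the cysteine protease cathepsin B, had 2.82 to 12.8 TPM in the cytosol (median 6.63) and 127 to 261 TPM in the membrane fraction (median 185). Its difference was 5.31 ± 0.219 (edgeR, adjusted p = 9.12e-33). Ctsz, a carboxypeptidase, had 5.25 to 30.5 TPM in the cytosol (median 20.2) and 229 to 477 TPM in the membrane fraction (median 397), a difference of 4.82 ± 0.219 (edgeR, adjusted p = 1.83e-30). In the nucleus the median was 52.2 TPM for Ctsl, 45.2 for Ctsb and 99.3 for Ctsz, and in each of them every nuclear library lay between the cytosolic and the membrane libraries.

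Ctsa, the carboxypeptidase that protects lysosomal neuraminidase and galactosidase, had a smaller difference. Its level was 5.22 to 25.5 TPM in the cytosol (median 11.5), 36.0 to 112 TPM in the nucleus (median 49.996) and 53.5 to 160 TPM in the membrane fraction (median 105). Hexa, the alpha subunit of beta-hexosaminidase, had 4.60 to 38.6 TPM in the cytosol (median 17.8), 55.9 to 153 TPM in the nucleus (median 77.7) and 102 to 239 TPM in the membrane fraction (median 175). In both genes the membrane libraries lay above all cytosolic ones but overlapped with the nuclear ones. The log2 difference between membrane fraction and cytosol was 3.58 ± 0.240 for Ctsa (edgeR, adjusted p = 1.03e-21) and 3.63 ± 0.265 for Hexa (edgeR, adjusted p = 6.37e-20).

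Psap, the precursor of the saposins that present sphingolipids to their hydrolases, had 3.30 to 27.5 TPM in the cytosol (median 14.3), 88.3 to 157 TPM in the nucleus (median 123) and 185 to 421 TPM in the membrane fraction (median 346). Its fractions were separated in the same order, and the difference between membrane fraction and cytosol was 5.04 ± 0.222 (edgeR, adjusted p = 3.42e-31).

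The membrane proteins stood at the ends of the range of levels. Lamp1, a heavily glycosylated protein of the lysosomal membrane, was the most abundant of the 9 mRNAs, with 44.8 to 202 TPM in the cytosol (median 109), 259 to 622 TPM in the nucleus (median 365) and 864 to 1875 TPM in the membrane fraction (median 1315). The fractions did not overlap, and the membrane fraction was higher than the cytosol by 4.07 ± 0.212 (edgeR, adjusted p = 2.71e-27). Npc1, which moves cholesterol out of the lysosome, was the least abundant, with 0.504 to 5.01 TPM in the cytosol (median 1.89), 4.43 to 18.9 TPM in the nucleus (median 13.7) and 8.50 to 28.3 TPM in the membrane fraction (median 15.1). The lowest nuclear library of Npc1 was below the highest cytosolic one, and nucleus and membrane fraction overlapped over most of their range. The difference between membrane fraction and cytosol was 3.34 ± 0.258 (edgeR, adjusted p = 9.69e-19).

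**Figure D1:**
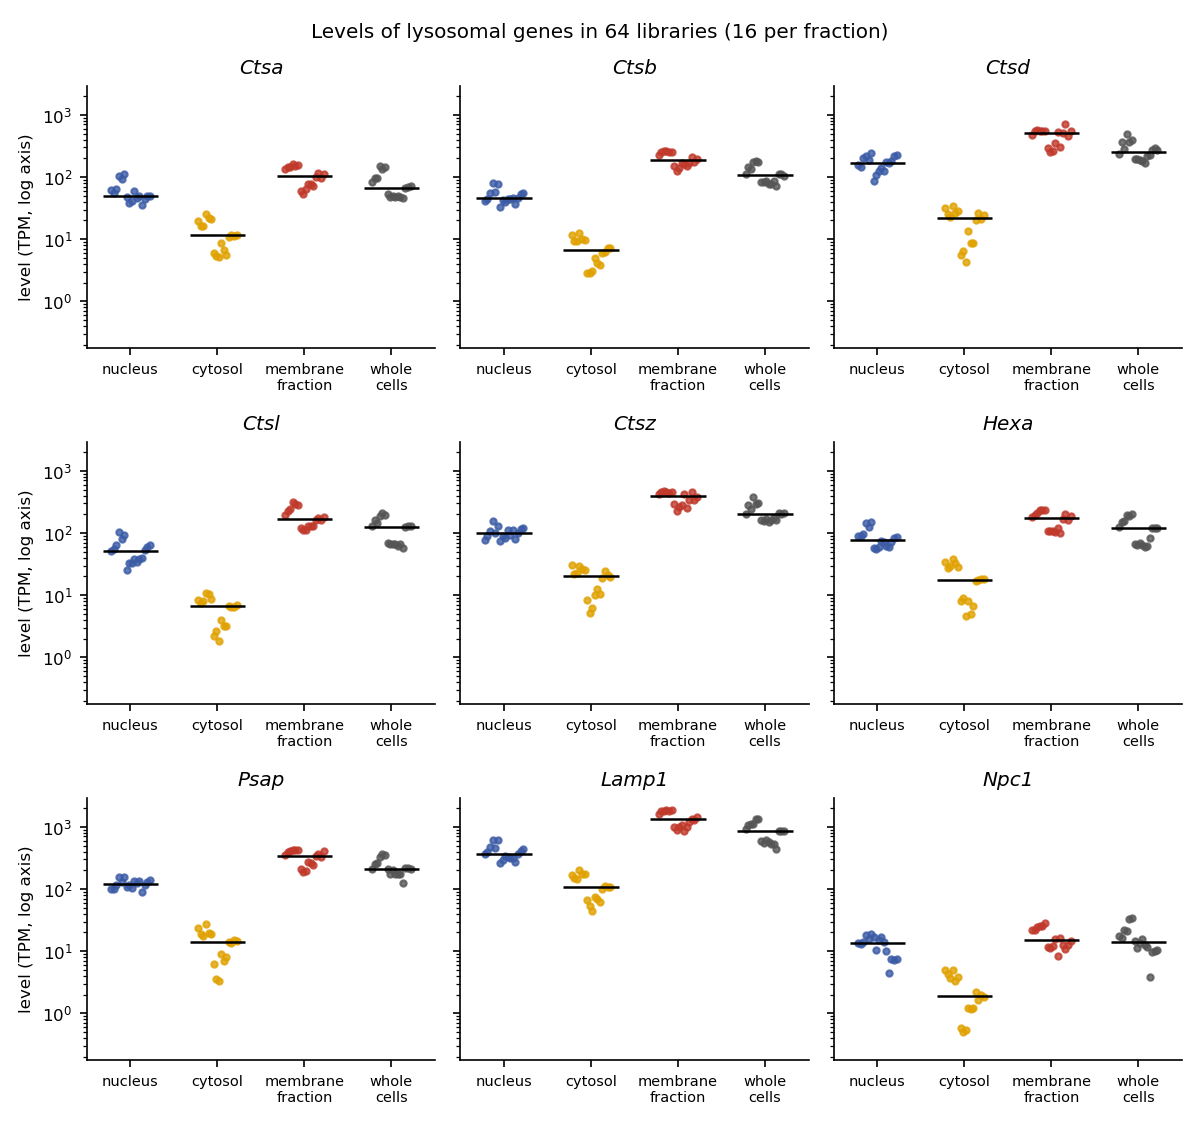
Level of each gene in TPM on a log axis, with 1 point per library (16 per fraction) and a bar at the median. In every panel the cytosolic median lies lowest, and all membrane points lie above all cytosolic ones, from Npc1 (medians 15.1 and 1.89 TPM) to Lamp1 (1315 and 109 TPM).

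All 9 genes were called higher in the membrane fraction than in the cytosol (edgeR, adjusted p under 0.05 and a log2 difference over 0.5), against 24.1% of 16093 genes tested. Their median difference was 4.82, and that of all genes tested -0.16. No membrane library overlapped with a cytosolic one in 9 of 9 genes, against 11.9% of 16071 genes. All 9 were also called higher in the nucleus than in the cytosol, where 42.5% of genes were called higher, with differences between 1.62 ± 0.192 (Lamp1) and 3.00 ± 0.243 (Ctsd). Nuclear and cytosolic libraries did not overlap in 8 of the 9 genes, Npc1 being the exception, against 13.3% of genes. The chaperones Hspa5, Hsp90b1, Calr and Canx were also all called higher in the nucleus than in the cytosol, with a median of 2.55. Whether membranes were carried over into the nuclear fraction was not tested. Between membrane fraction and nucleus the 9 genes were again all called higher in the membrane fraction, by 1.15 ± 0.237 (Npc1) to 2.64 ± 0.193 (Ctsb), against 28.7% of genes. These libraries did not overlap in 6 genes, all but Ctsa, Hexa and Npc1, against 2.96% of genes. Within replicates 3 and 4 alone the difference of Npc1 between membrane fraction and nucleus fell to 0.49 and was no longer called. Levels are relative to all RNA of a library, so that they do not give amounts per cell.

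The cytosolic levels spread further than the membrane levels in all 9 genes, by the ratio of the highest to the lowest library. Ctsd in the cytosol was 4.34 to 6.37 TPM in the 3 libraries of replicate 3, and 20.3 to 34.3 TPM in the 10 libraries of replicates 1, 2, 5 and 6. Ctsl followed the same order of replicates, with 1.82 to 2.64 TPM in replicate 3 and 6.43 to 10.6 TPM in replicates 1, 2, 5 and 6. In whole cells the highest library of Ctsa, Ctsd and Ctsz was replicate 2 at 15 min.

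Within a culture the membrane-to-cytosol fold ordered the genes as Ctsl (median 29.6), Ctsb (27.9), Psap (25.5), Ctsd (24.8), Ctsz (20.1), Lamp1 (12.1), Hexa (10.1), Ctsa (9.10) and Npc1 (7.36). By mean log2 ratio Ctsd stood just above Psap. Of the 8 pairs of neighbours 3 differed beyond their spread over 16 cultures in a two-sided sign-flip permutation test with Benjamini-Hochberg adjustment. Psap was above Ctsz by 0.25 ± 0.0513 on the log2 scale (13 of 16 cultures, permutation p = 0.000427, adjusted p = 0.00171). Ctsz was above Lamp1 by 0.82 ± 0.0733 (16 of 16 cultures, permutation p = 3.05e-05, the smallest that 65536 sign flips can give, adjusted p = 0.000244). Lamp1 was above Hexa by 0.30 ± 0.103 (14 of 16 cultures, permutation p = 0.0132, adjusted p = 0.0352). The other 5 pairs did not differ beyond this spread. Over the means of the 6 replicates no pair passed after adjustment, which there needs at least 6 of the 8 pairs at the smallest p. Psap lay above Ctsz and Ctsz above Lamp1 in 6 of 6 replicates (exact sign-flip permutation p = 0.0313, the smallest that 64 sign flips can give, adjusted p = 0.125), and Lamp1 above Hexa in 5 of 6 (exact permutation p = 0.125, adjusted p = 0.25).

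In whole cells the order by mean log2 level was Lamp1, Ctsd, Psap, Ctsz, Ctsb, Ctsl, Hexa, Ctsa and Npc1, whereas by median TPM Ctsl (127) and Hexa (119.9) stood above Ctsb (108). Among 14103 genes of at least 1 TPM in whole cells, Lamp1 stood at percentile 99.2, Ctsd at 96.9 and Npc1 at 50.6. Neighbours differed beyond their spread in 5 of 8 pairs, all but Psap and Ctsz, Ctsb and Ctsl, and Ctsl and Hexa. Lamp1 exceeded Ctsd by 1.60 ± 0.0660 on the log2 scale in 16 of 16 cultures (permutation p = 3.05e-05, adjusted p = 6.10e-05). Over replicate means Lamp1 was above Ctsd, Ctsz above Ctsb, Hexa above Ctsa and Ctsa above Npc1 in 6 of 6 replicates (exact permutation p = 0.0313, adjusted p = 0.0625), and Ctsd above Psap in 5 of 6 (exact permutation p = 0.0625, adjusted p = 0.1). Without replicate 5 Psap and Ctsz also differed, by 0.11 ± 0.0440 (12 of 14 cultures, permutation p = 0.0304, adjusted p = 0.0405). Per principal transcript length the order was the same, and all pairs but Ctsl and Hexa differed beyond their spread over cultures. Ctsa then exceeded Npc1 by 1.58 ± 0.127, against 2.32 ± 0.127 per exon length, and Hexa exceeded Ctsa by 0.18 ± 0.0479, against 0.56 ± 0.0479. The percentiles rest on exon length.

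No change of level with labeling time was called. In whole cells none of the 9 genes, and 0% of 16858 genes, was called between 60 and 20 min within replicates 3 and 4 (edgeR, 747 genes with p under 0.05 unadjusted). By the labels the dose differed between these times as well. Between 120 and 60 min within replicates 5 and 6 0% of 16858 genes were called as well (edgeR, 123 genes below that unadjusted p). DESeq2 called 0 genes in both, with 640 and 101 below it. Each fit took all 18 whole-cell libraries to estimate the spread, those of replicates 3 and 4 at 120 min among them. The differences of the 9 genes lay between -0.17 (Npc1) and 0.23 (Ctsz) for 60 min, and between -0.45 (Ctsd) and 0.17 (Npc1) for 120 min. Between 120 and 60 min, with replicate 5 left out, Ctsa moved from -0.25 to 0.04, Ctsz from -0.34 to 0.06 and Ctsl from 0.06 to -0.03. With replicate 6 left out instead, they were -0.50, -0.64 and 0.15. These tests rest on 2 libraries per time.

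The share of new RNA was the second readout. It is the fraction of T positions in reads of a gene that were read as C, divided by the conversion rate of the library, and is given in percent. It carries no background subtraction and can exceed 100%. At 15 min the T2C fraction pooled over 8 libraries was 0.0270 to 0.0385% for 8 of the genes, and 0.130% for Npc1, against a median of 0.0474% over 11575 genes.

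Ctsd had its highest shares in the cytosol. Its cytosolic share was 2.58 and 5.42% at 15 min, 16.4 and 20.4% at 30 min, 20.9 to 40.2% at 60 min (median 31.1%, n = 4) and 38.0 and 39.7% at 120 min. In the nucleus the share was 2.05 and 4.29% at 15 min, 13.5 to 22.1% at 60 min (median 17.7%) and 27.1 and 28.8% at 120 min. In the membrane fraction it was 1.11 and 1.30% at 15 min, 1.26 and 1.37% at 30 min, 7.47 to 8.33% at 60 min (median 7.80%) and 20.0 and 21.98% at 120 min. Cytosol and membrane fraction did not overlap at any time, while the nuclear and cytosolic values overlapped at 15, 20 and 60 min. Over all cultures the membrane share was lower than the cytosolic one by 2.24 ± 0.180 on the log2 scale, the widest difference of the 9 genes (limma, adjusted p = 3.66e-15), and it was lower in 16 of 16 cultures. The nuclear share of Ctsd was also lower than the cytosolic one, by 0.65 ± 0.180 (limma, adjusted p = 0.00100), in 15 of 16 cultures.

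Ctsl had a similar pattern. Its cytosolic share was 2.33 and 3.56% at 15 min, 21.6 and 25.8% at 30 min, 10.2 and 11.9% at 40 min and 30.8 and 33.03% at 120 min. The fall between 30 and 40 min lies between replicates 1 and 2 and replicates 3 and 4, so that time and replicate pair cannot be told apart there. The membrane share was 0.758 and 0.908% at 15 min and 17.0 and 18.6% at 120 min, and it was lower than the cytosolic share in 16 of 16 cultures (-2.06 ± 0.204, limma, adjusted p = 4.59e-12). The nuclear share was lower than the cytosolic one in 14 of 16 cultures (-0.53 ± 0.204, limma, adjusted p = 0.0155). This call was lost without replicate 2 (-0.44), replicate 5 (-0.50) or replicate 6 (-0.49), each time by a difference just under the size asked.

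For Ctsb the cytosolic share was 27.0 and 32.7% at 120 min and the membrane share 18.8 and 20.2%. The membrane share was lower in 16 of 16 cultures, by 1.74 ± 0.171 (limma, adjusted p = 3.44e-12). Ctsz reached 37.4 and 38.3% in the cytosol and 17.3 and 19.3% in the membrane fraction at 120 min, and its membrane share was lower in 15 of 16 cultures (-1.75 ± 0.223, limma, adjusted p = 6.80e-09). In both genes the nuclear share was lower than the cytosolic one by just under the size asked of a call, at -0.46 ± 0.171 for Ctsb (limma, adjusted p = 0.0114) and -0.47 ± 0.223 for Ctsz (limma, adjusted p = 0.0456).

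Hexa had 40.3 and 41.1% new RNA in the cytosol, 31.4 and 35.9% in the nucleus and 18.5 and 20.8% in the membrane fraction at 120 min. Its membrane share was lower than the cytosolic one in 16 of 16 cultures (-1.73 ± 0.197, limma, adjusted p = 3.17e-10), while nucleus and cytosol differed by 0.21 ± 0.197 (limma, adjusted p = 0.311). Ctsa had more new RNA in the nucleus than in the cytosol from 40 to 60 min. Its nuclear share was 9.82 and 15.2% at 40 min, when the cytosolic share was 0.499 and 3.88% and the membrane share 0.724 and 0.861%. At 60 min its nuclear share was 13.1 to 23.9% (median 21.3%) and its cytosolic share 7.45 to 15.3% (median 9.80%), and at 120 min they overlapped, at 30.9 and 33.2% in the nucleus and 31.8 and 34.6% in the cytosol. The nuclear share of Ctsa was higher by 0.95 ± 0.266 over all cultures (limma, adjusted p = 0.00113), in 12 of 16. Without replicate 3 the difference was 0.54 and no longer called. Its membrane share was lower than the cytosolic one by 1.08 ± 0.266 (limma, adjusted p = 0.00168), and this call was lost within replicates 1 and 2 (-0.30) and within the pair 3 and 4 (-1.20).

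Psap had the lowest membrane share of the 9 genes at 120 min. It was 2.29 to 3.07% at 60 min (median 2.71%) and 8.14 and 9.39% at 120 min. In the cytosol it ranged widely at 60 min, from 8.62 to 36.9% (median 24.4%), and reached 35.7 and 43.0% at 120 min, while the nuclear share was only 16.3 and 18.8%. The membrane share was lower than the cytosolic one by 1.75 ± 0.218 (limma, adjusted p = 3.77e-09), in 13 of 16 cultures. The nucleus and the cytosol differed by 0.09 ± 0.218 over all cultures (limma, adjusted p = 0.700), higher in the nucleus in 10 of 16 cultures and lower in 6.

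Lamp1 had the lowest cytosolic shares at the end of labeling, 20.3 and 20.5% at 120 min, with 17.6 and 18.5% in the nucleus and 12.03 and 12.6% in the membrane fraction. Its membrane share was lower than the cytosolic one in 16 of 16 cultures (-1.29 ± 0.154, limma, adjusted p = 1.26e-09). Npc1 had the highest shares of the 9 genes, with 90.2 and 108% in the cytosol, 63.8 and 73.8% in the nucleus and 42.7 and 47.9% in the membrane fraction at 120 min. Its membrane share was lower than the cytosolic one by 0.99 ± 0.169 (-0.99 on the log2 scale, limma, adjusted p = 5.98e-06), in 14 of 16 cultures.

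**Figure D2:**
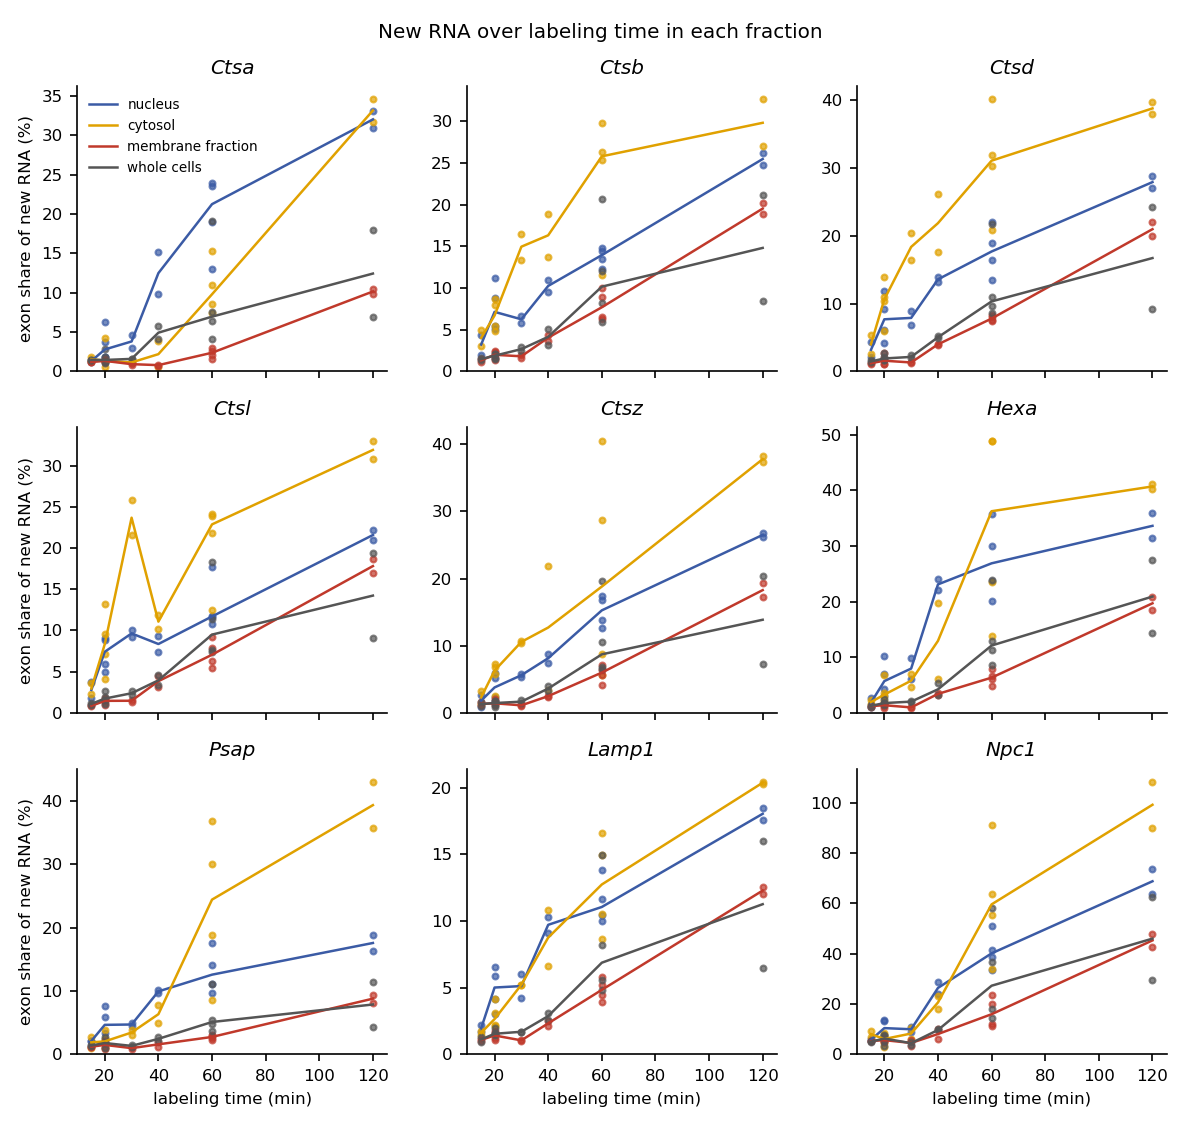
Exon share of new RNA in percent against labeling time in min, with 1 point per library and lines through the medians of each fraction. The red membrane line lies below the yellow cytosolic line at 60 and 120 min in every panel, and the y axes differ between panels, with Npc1 reaching 108%. The whole-cell points at 60 and 120 min include the libraries of replicate 6.

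All 9 genes were called lower in the membrane fraction than in the cytosol by share, against 10.8% of 11575 genes (limma, adjusted p under 0.05 and a log2 difference over 0.5). Their median difference was -1.74, against 0.02 over all genes. Within single replicate pairs the calls of Npc1 (-0.61 in replicates 1 and 2) and of Ctsb and Lamp1 (-1.04 and -1.13 in replicates 5 and 6) were lost, beside those of Ctsa given above, and all of these values kept their sign. Against the nucleus the membrane share was also called lower in 9 of 9 genes, but so it was in 82.2% of all genes, and the medians were -1.53 and -1.08. Of the 9 genes 3 were called within replicates 5 and 6, as were 1567 of 12953 genes there. Between nucleus and cytosol 1 of the 9 genes was called higher in the nucleus (Ctsa), against 78.5% of genes, and 2 were called lower (Ctsd and Ctsl), against 1.03% of genes. Their median difference was 0.01, and that of all genes 1.05. The 3 replicate pairs differed here. Within replicates 3 and 4 the nuclear share was called higher in 4 genes (Ctsa, Lamp1, Hexa and Psap) and lower in 0, against 9534 and 84 of 11840 genes. Within replicates 1 and 2 it was called higher in 0 and lower in 4 (Ctsb, Ctsd, Ctsl and Ctsz), against 6673 and 181 of 12551 genes. Replicates 5 and 6 gave 0 calls of the 9 genes, and 67 higher and 43 lower among 12953 genes.

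Introns are read from unspliced RNA, and their share follows the youngest transcripts. In the nucleus the intron share of Ctsd was 29.3 and 31.7% at 15 min, 53.5 to 87.8% at 20 min (median 73.3%, n = 4), 87.9 and 97.6% at 30 min and 107 to 126% at 60 min (median 111%). Ctsl and Ctsb had similar values, with 35.2 and 41.1% and with 28.8 and 32.7% at 15 min. Ctsa, Ctsz and Psap were lower, with 5.75 and 7.96%, 8.05 and 8.66%, and 10.9 and 13.3% at 15 min.

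At 40 min the nuclear intron share was 101 to 130% for Ctsb, Ctsd, Hexa and Lamp1 and 93.5 and 107% for Ctsl. It was 47.9 and 54.6% for Ctsa, 67.3 and 67.4% for Ctsz, 61.2 and 75.6% for Psap and 65.7 and 70.2% for Npc1. The genes thus divided at 40 min into 5 with higher and 4 with lower intron shares, which did not overlap. By 120 min all 9 genes had nuclear intron shares between 79.8% (Ctsl) and 124% (Ctsb). The exon share in the same nuclear libraries was far lower, for instance 12.2 to 14.8% for Ctsb at 60 min.

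**Figure D3:**
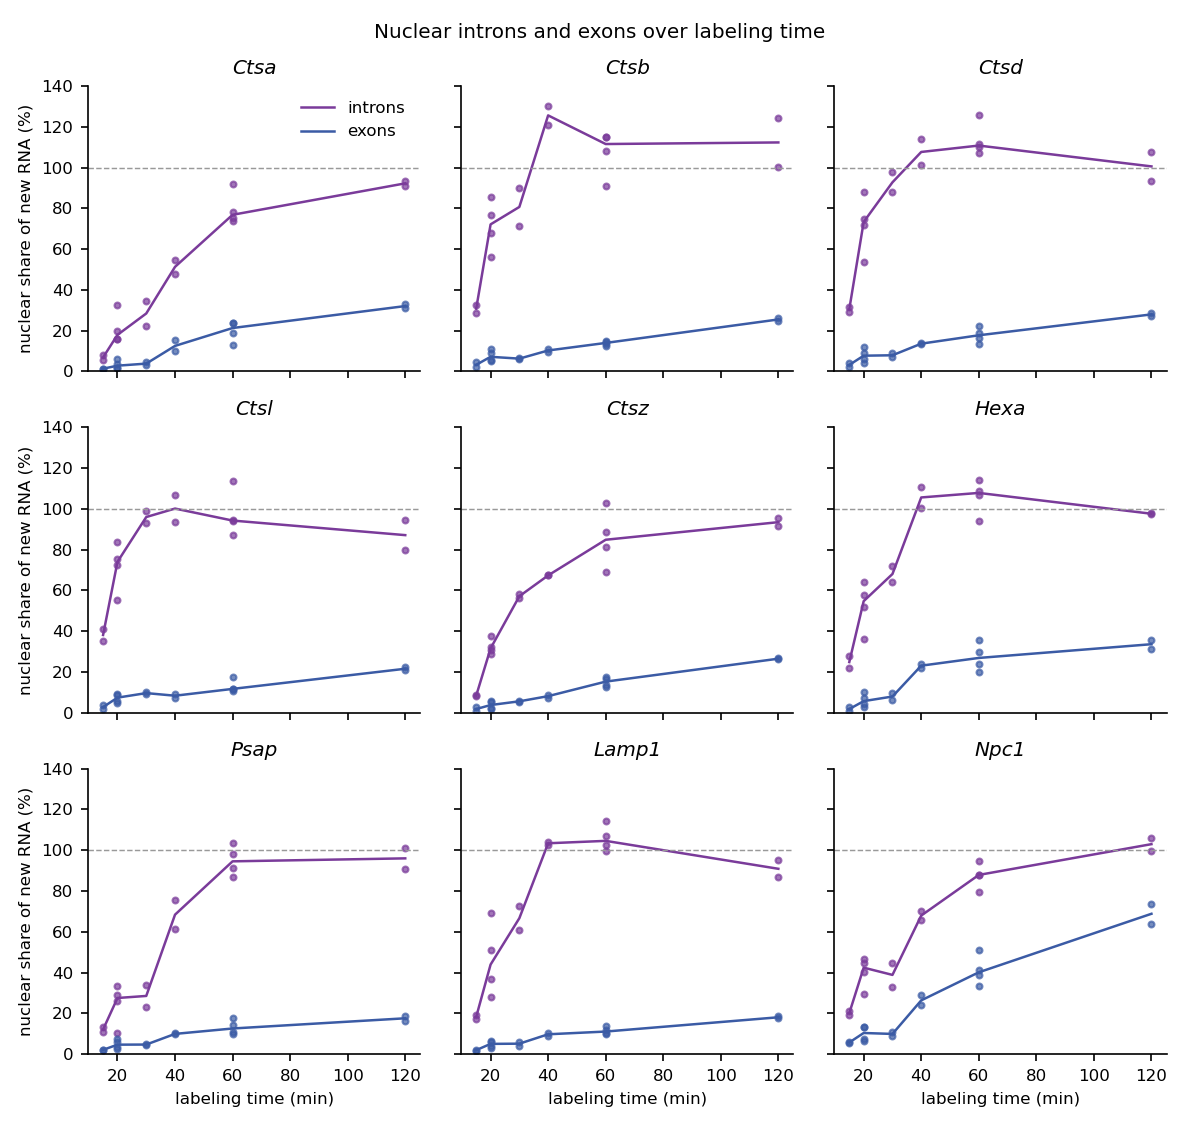
Share of new RNA in percent in introns (purple) and exons (blue) of the same 16 nuclear libraries against labeling time in min, with lines through the medians and a dashed line at 100%. Introns of Ctsb, Ctsd, Ctsl, Hexa and Lamp1 reach the dashed line by 40 min and those of Ctsa, Ctsz, Psap and Npc1 lie below it then, while exon shares reach at most 35.9% in all genes but Npc1.

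The intron share exceeded the exon share in 16 of 16 nuclear libraries in each of the 9 genes. The difference was between 1.505 ± 0.126 (Npc1, limma, adjusted p = 1.75e-12) and 3.20 ± 0.113 (Lamp1, limma, adjusted p = 1.39e-20) on the log2 scale. All 9 were called, as were 96.6% of 10380 genes. Their median was 2.76, against 1.96 over all genes.

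Exons far from the 3′ end had lower shares at short labeling. Pooled over the 8 nuclear libraries of 15 to 30 min, the share in the exon nearest the 3′ end was between 5.86% (Psap) and 18.7% (Npc1), and in the exon nearest the 5′ end between 0.596% (Ctsb) and 3.59% (Psap). It was lower at the 5′ end in 9 of 9 genes, and no count over all genes was made. For Hexa, whose 5′-most exon lies 25133 bases from the end of the gene, it was 14.2% at the 3′ end and 0.915% at the 5′ end, and for Lamp1 5.89 and 1.57%. The values at the 5′ end rest on 1 to 38 T2C counts each and were not tested. The study describes such a fall with distance from the 3′ end across its nuclear exons, so that it is not particular to these genes.

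The last exon of Npc1 had more T2C at 15 min than any other exon of the 9 genes. Pooled over the 8 libraries of 15 min, this exon had 447 T2C counts in 152519 T positions, or 0.293%. The next highest of 114 exons of the 9 genes with enough T positions had 0.0761% and also belonged to Npc1. Without the last exon the share of Npc1 at 15 min fell from 5.33 and 6.04% to 0.992 and 1.36% in the nucleus, and from 5.06 and 5.34% to 0.893 and 1.54% in the membrane fraction. These values lay within the range of the other 8 genes at 15 min. At 120 min the other exons had 55.4 and 70.5% in the nucleus and 36.4 and 40.6% in the membrane fraction, against 63.8 and 73.8% and 42.7 and 47.9% for the whole gene.

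**Figure D4:**
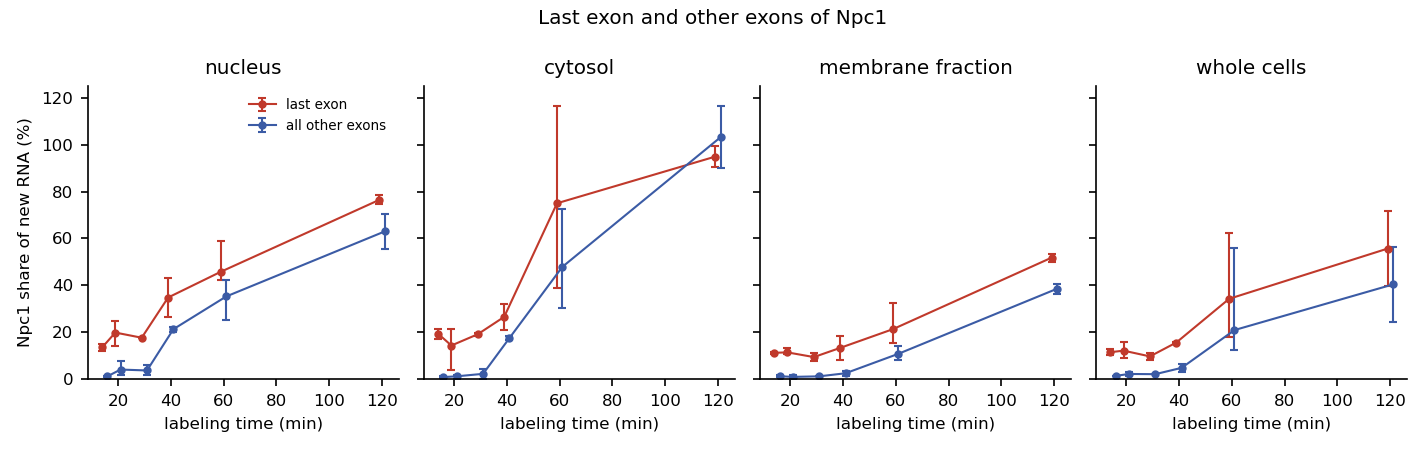
Share of new RNA of Npc1 in percent against labeling time in min, for the last exon (red) and all other exons together (blue), with medians as points and bars from the lowest to the highest library. At 15 min the last exon lies between 10.1 and 21.4% and the other exons between 0.430 and 1.54%, and in the cytosol at 120 min the bars overlap.

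Without its last exon Npc1 was still called lower in the membrane fraction than in the cytosol (-1.19 ± 0.294, limma, adjusted p = 0.00184). The difference between nuclear introns and exons grew from 1.505 to 2.46 ± 0.264 (limma, adjusted p = 4.17e-10), within the range of the other 8 genes. This exon was left out after its values had been seen.

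Whole-cell half-lives were fitted to the rise of the share, as the time by which the old and the new part of an mRNA pool are equal, with a delay of 5 min. Psap had the longest at 13.6 ± 2.05 h (jackknife standard error over 6 replicates), followed by Lamp1 at 9.80 ± 1.86 h and Ctsa at 8.61 ± 1.25 h. The cathepsins Ctsz, Ctsl, Ctsb and Ctsd lay close together, at 7.76 ± 1.69, 7.45 ± 1.15, 7.07 ± 1.33 and 6.33 ± 1.13 h. Hexa had 5.41 ± 0.867 h and Npc1 2.13 ± 0.552 h. The fit of Npc1 includes its last exon, whose share in whole cells was already 10.1 and 12.8% at 15 min. A half-life without that exon is not given here. The median over 11575 genes was 3.59 h, with quartiles at 2.11 and 6.12 h, so that 7 of the 9 genes lay above the upper quartile, Hexa between median and upper quartile, and Npc1 just above the lower quartile.

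The half-lives rest on the late libraries that stood apart. Without replicate 6 that of Psap was 12.4 h, that of Lamp1 9.20 h and that of Ctsd 5.87 h. Without replicate 5 every value rose, to 15.5 h for Psap, 11.7 h for Lamp1 and 2.69 h for Npc1. Labeling ended at 120 min, short of each of these half-lives. The replicates hold different labeling times, and all 120 min libraries in the fits come from replicates 5 and 6. The jackknife error therefore also reflects which times are left out, and is not a spread of like replicates. Ordered by whole-cell share, only Npc1 and the next gene, Ctsd, differed beyond their spread (1.32 ± 0.0998 on the log2 scale, 16 of 16 cultures, permutation p = 3.05e-05, adjusted p = 0.000244). Over replicate means the difference was 1.35 ± 0.104 in 6 of 6 replicates (exact permutation p = 0.0313, adjusted p = 0.25). That pair also differed without replicate 6 (1.29 ± 0.111, 14 of 14 cultures, permutation p = 0.000122, adjusted p = 0.000977) and without replicate 5 (1.29 ± 0.1098, 14 of 14 cultures). Without the last exon of Npc1 it was 0.39 ± 0.164 and no longer passed (12 of 16 cultures, permutation p = 0.0341, adjusted p = 0.212).

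Other genes of the lysosome were read from lists by role. Of 40 other hydrolases and their activators 38 were tested, and 37 were called higher in the membrane fraction than in the cytosol and 0 lower, with a median of 3.52. Over all genes tested 24.1% were called higher. Ctsc, a dipeptidyl peptidase, had the highest difference at 4.95 ± 0.330 (edgeR, adjusted p = 7.38e-22), and Manba, beta-mannosidase, the lowest at -0.02 ± 0.169, with 39.1 TPM in the membrane fraction and 54.2 TPM in the cytosol. The log2 differences are scaled by TMM factors of edgeR and TPM is not, so that they need not match. Of 20 other membrane proteins 19 were called higher and 0 lower, with a median of 3.11, from Pip4p1, a phosphoinositide phosphatase, at -0.02 ± 0.108 to the tetraspanin Cd63 at 4.38 ± 0.163. The most abundant of them was Laptm4a at 4.30 ± 0.164.

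All 6 genes of sorting to the lysosome were called higher in the membrane fraction, with a median of 3.58. They include the mannose 6-phosphate receptors M6pr (3.85 ± 0.129) and Igf2r (4.49 ± 0.260), and Gnptab, a subunit of the enzyme that makes the tag (2.54 ± 0.153). Other proteins act at the lysosome's surface but are made in the cytosol. Of 25 such genes 1 was called higher and 3 were called lower, with a median of -0.24. Over all 16093 genes tested 3874 were higher and 2068 lower, so that the 3 lower genes are near the share over all genes. Lamtor4, part of the Ragulator complex, was higher by 0.57 ± 0.117 (edgeR, adjusted p = 2.51e-05). Vps41, a tethering subunit, stood at -0.88 ± 0.0984 (edgeR, adjusted p = 3.16e-12), and Rraga stood at -0.50 ± 0.120 (edgeR, adjusted p = 0.000275), just short of the size asked of a call. Rraga had 66.1 TPM in the membrane fraction and 143 TPM in the cytosol. With library size only, 3400 of all genes were higher and 7295 lower, so that calls near the threshold depend on the scaling. The counts of this list under other scaling factors are not given here.

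**Figure D5:**
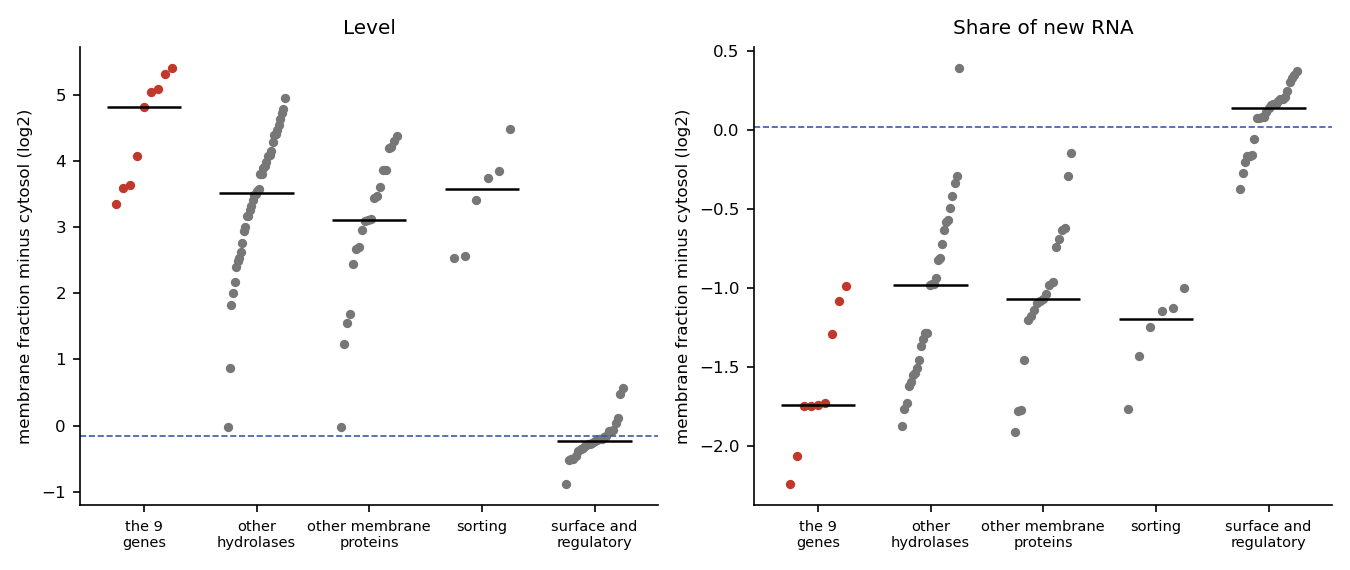
Difference between membrane fraction and cytosol on the log2 scale, for levels (left) and for shares of new RNA (right), with 1 point per gene, a bar at each list's median and a dashed line at the median of all genes tested. The 4 groups of proteins made at the endoplasmic reticulum have medians above the line in level (3.11 to 4.82) and below it in share (-1.74 to -0.98), and the surface and regulatory genes lie close to it in both (medians -0.24 and 0.14).

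The lists were also read by share. The membrane share was called lower than the cytosolic one in 19 of 28 hydrolases, 13 of 19 membrane proteins and 6 of 6 sorting genes, and in 0 of 25 genes made in the cytosol, against 10.8% of all genes. The nuclear share was called higher than the cytosolic one in 13 of 28, 9 of 19 and 2 of 6 genes of the first groups, and in 25 of 25 genes made in the cytosol, against 78.5% of all genes. Median half-lives were 6.24 h, 4.62 h, 6.49 h and 2.66 h in the order of these lists, against 7.45 h for the 9 genes. None of these differences between lists was tested. The chaperones Hspa5, Hsp90b1, Calr and Canx were all called lower by share in the membrane fraction than in the cytosol (median -1.81). Between nucleus and cytosol 0 of these 4 were called higher and 1 lower by share (median -0.20). For membrane-localized mRNAs in general, the study describes label that rises alike in mature nuclear and cytosolic RNA and more slowly at membranes.

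Across the means of 32 combinations of fraction, time and replicate pair, the genes most like the mean profile of the 9 were Fkbp9 (Pearson r = 0.998), P4hb (0.997), Derl1, Hacd2 and Tm7sf3 (0.996 each). P4hb, a protein disulfide isomerase of the endoplasmic reticulum, had 1192 TPM in the membrane fraction and 71.4 TPM in the cytosol. The 9 genes themselves correlated with their mean at 0.953 (Npc1) to 0.995 (Ctsl), which contains each of them. Of 9126 other genes 1264 (13.9%) exceeded 0.9. The points share libraries and are dominated by the 4 fractions, so that these values are a description.

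Windows of 300 bases around the transcription starts, 250 before and 50 after, are shown for 3 genes that share the letters CACGTG, the core of the element bound by TFEB and its relatives, regulators of many lysosomal genes. The sequences are from RefSeq on GRCm38, 5′ to 3′ on the strand of the gene, with each CACGTG in capitals.
Lamp1 at chr8:13158911-13159210, plus strand: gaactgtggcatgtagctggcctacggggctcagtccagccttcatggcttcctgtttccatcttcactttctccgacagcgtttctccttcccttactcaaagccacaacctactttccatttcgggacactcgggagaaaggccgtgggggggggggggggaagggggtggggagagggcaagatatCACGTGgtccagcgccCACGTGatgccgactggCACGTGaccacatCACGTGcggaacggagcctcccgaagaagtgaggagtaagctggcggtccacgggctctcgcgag
Ctsd at chr7:142387778-142388077, minus strand: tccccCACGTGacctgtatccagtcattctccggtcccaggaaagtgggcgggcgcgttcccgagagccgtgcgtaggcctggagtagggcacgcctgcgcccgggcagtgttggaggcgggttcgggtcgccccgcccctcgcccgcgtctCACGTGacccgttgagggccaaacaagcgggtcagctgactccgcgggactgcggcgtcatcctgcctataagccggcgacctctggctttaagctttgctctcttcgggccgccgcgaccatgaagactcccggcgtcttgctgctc
Ctsa at chr2:164833523-164833822, plus strand: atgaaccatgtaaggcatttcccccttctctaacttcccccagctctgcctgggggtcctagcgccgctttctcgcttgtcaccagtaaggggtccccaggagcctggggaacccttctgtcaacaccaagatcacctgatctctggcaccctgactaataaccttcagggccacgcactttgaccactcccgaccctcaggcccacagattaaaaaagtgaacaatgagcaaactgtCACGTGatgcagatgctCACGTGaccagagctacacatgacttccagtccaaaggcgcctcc

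Lamp1 held 4 such matches within 61 bases of its start, Ctsd 2 and the second start of Ctsa 2. A further match lay 236 bases before the start of Ctsl. No match was found in these windows for Ctsz, Hexa, Psap or the first start of Ctsa, and 7 of the 9 genes had an entry, Ctsb and Npc1 having none. CACGTG reads the same on both strands and was held by 7.15% of 32851 windows of the same length. The longer form TCACGTGA, which overlaps it, occurred 2 times in Ctsa and 1 time in Ctsd, and in 0.974% of all windows. A match is a description of letters and not a binding site, and no factor was measured in these libraries.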

How the data were processed

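Poly(A) RNA of 4 fractions of 4sU-labeled E14TG2a cells was sequenced strand-specifically after alkylation. According to the study's methods, the authors trimmed the reads, aligned them with STAR to GRCm38 and deposited raw read counts per gene from HTSeq (the submitters' notes give STAR 2.7.6, HTSeq 0.11.1, RSEM 1.3.3 and mm10). The authors also deposited counts of T positions and T2C mutations per gene, exon and intron, a conversion rate per library as a fraction estimated with a mixture model, and the ratio of T2C to T divided by that rate, which is the share of new RNA. Recomputing this ratio from the counts gave differences of at most 1.2e-13. Summary rows without a gene held 30.7 to 48.8% of reads and were left out. Of 51826 genes 51633 matched the GENCODE vM21 annotation used here for lengths and positions, an annotation release that differs from the authors' own.

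Samples were grouped by fraction, time and replicate from their labels. Levels were tested with edgeR 4.0.16 (TMM factors, quasi-likelihood test, fraction as the only term). Shares were tested with limma 3.58.1 on the log2 scale with an offset of 0.5 T2C counts, genes of at least 400 T positions in each library, and time and replicate pair as a term. p-values were adjusted after Benjamini-Hochberg over all genes tested, and a call needed an adjusted p under 0.05 and a log2 difference over 0.5. Both scripts were tested on simulated data. Half-lives came from least squares fits with a delay of 5 min that assume a constant level. Orders were tested by two-sided sign-flip permutation over cultures. R 4.3.3, DESeq2 1.42.0, Python 3.11.15, scipy 1.17.1 and pandas 2.3.3 were used.

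The 9 genes, the lists of other lysosomal genes and the markers were chosen with earlier results of these data known. Named from each list are the gene with the highest whole-cell level and those with the highest and lowest membrane-to-cytosol difference (1 of these genes is not reported here), and for likeness the 5 other genes with the highest correlation among those with a mean CPM of at least 10 in whole cells. Alternatives covered the replicate block, other scaling factors, filters and offsets, DESeq2, all 72 libraries, leaving out each replicate, and each replicate pair alone. The alternatives with times of at least 40 min, without the last exon of Npc1, with the 15 min share subtracted, with principal transcript lengths, and the orders without replicate 5 or 6 or over replicate means were chosen after seeing the data. The pairing was checked by correlating deviations of fractions of the same culture. For levels r was 0.54 to 0.86 between cytosol and membrane fraction, over 0.1 in 16 of 16 cultures, but over 0.1 in only 13 of 16 between nucleus and cytosol, and for shares in 0 of 16.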

Additional observations from a re-analysis of the deposited data

Results flagged for a closer look

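In groups of 4 libraries, 3 of 108 groups held a library far from the others, and chance gives about 1 in 20. The nuclear exon share of Ctsl at 60 min was 17.7% in replicate 3 and 10.8 to 11.8% in the other 3 libraries. The whole-cell level of Ctsl at 60 min was 131 TPM in replicate 6 and 56.7 to 67.2 TPM in the others, and the library of replicate 5 at that time also stood apart over all genes. The whole-cell level of Npc1 at 20 min was 32.4 TPM in replicate 2 and 14.7 to 16 TPM in the others.

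The sign of the difference between nuclear and cytosolic share changed with time in 4 genes, with every culture of one time on one side and every culture of the other time on the opposite side. The median difference in percentage points was -0.244 at 15 min and 9.47 at 60 min for Ctsa, 1.26 at 20 min and -7.09 at 120 min for Hexa, and 2.64 at 20 min and -21.8 at 120 min for Psap. For Npc1 it was 1.69 at 30 min and 5.8 at 40 min, and -19.5 at 60 min. These changes between times were not tested, and times come from different replicate pairs.

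Introns of the 9 genes also carried new RNA outside the nucleus. At 60 and 120 min, in 6 libraries each, they held 3720 T2C counts in 100292 T positions in the cytosol (pooled share 83.3 to 132% per library), 5915 in 156073 in the membrane fraction (71.0 to 102%) and 13094 in 315312 in whole cells (86.0 to 111%). No library without label was analysed here as a background.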

How the results depend on the processing

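Of 1006 values of the 9 genes under other settings, 947 kept their direction and their side of the threshold, 22 lost a call, 11 gained one and 26 changed sign, and the cause was not tested. The calls for level between membrane fraction and cytosol held in all of them. With culture as replicate block no call of a member changed, and over all genes 3972 were higher and 2218 lower between membrane fraction and cytosol, against 3874 and 2068. With library size only, 3400 were higher and 7295 lower, and the median of all genes moved from -0.16 to -0.47. Between nucleus and cytosol the median moved from 0.29 to -0.02 without replicate 4, and that between membrane fraction and nucleus from -0.05 to 0.26.

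The nuclear against the cytosolic share depended most on the setting. Members called higher were 0 to 1 with a replicate left out, and 0, 4 and 0 in the pairs of replicates 1 and 2, 3 and 4, and 5 and 6. Members called lower were 1 to 4 with a replicate left out, 4 with an offset of 2, and 4, 0 and 0 in these pairs. With an offset of 2 Psap was at -0.080 and Npc1 at -0.085, and with all 72 libraries Npc1 was at -0.022. With a replicate left out Hexa ranged from -0.083 to 0.36, Psap from -0.10 to 0.32 and Npc1 from -0.14 to 0.12. Npc1 was at -0.0015 within replicates 1 and 2, and Ctsz at 0.40 within replicates 3 and 4. Within replicates 5 and 6 Lamp1 was at -0.36, Hexa at -0.72, Psap at -1.43 and Npc1 at -0.63. At 40 min or more Lamp1 was at -0.053, Psap at -0.50 and Npc1 at -0.30.

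Within replicates 5 and 6 the membrane share was called below the nuclear one in 3 members, and over all genes 799, 110 and 1627 were called by share between membrane fraction and cytosol, nucleus and cytosol, and membrane fraction and nucleus. Ordered by share, 0 neighbours differed without the last exon of Npc1, and over the means of 6 replicates 0 neighbours differed in each of the 3 orders, where 64 sign flips bound the p. With a replicate left out, whole-cell levels at 60 against 20 min ranged from -0.039 to 0.17 for Ctsa, -0.034 to 0.40 for Ctsd, -0.051 to 0.14 for Ctsl and -0.039 to 0.12 for Psap, and at 120 against 60 min from -0.50 to 0.036 for Ctsa, -0.028 to 0.15 for Ctsl and -0.64 to 0.058 for Ctsz. Without a filter on low counts 42 and 49 genes were called between these times. Shares at 15 to 20 min rest on few T2C counts and lie near the level at 15 min, to which no background library was set here. In the membrane fraction some shares stayed near that level for longer. Lamp1 had 1.12 and 1.01% at 15 min and 0.989 and 1.07% at 30 min. Ctsa had 1.21 and 1.15% at 15 min and 0.724 and 0.861% at 40 min. Ctsl had risen from 0.908 and 0.758% to 1.30 and 1.60% at 30 min. The share differences over all cultures include such values.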
